A study of Mus musculus with 42 samples.

Results

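Liver messenger RNA of mice given the highest dose of benzo(k)fluoranthene (BkF) was compared with that of mice given the vehicle. The comparison holds 8 liver arrays of the 42 arrays in the series: 4 labelled D3, from mice 16, 17, 19 and 20, and 4 labelled D0, from mice 1, 2, 3 and 4. Each array was put in its group by its label. All were male Muta™Mouse animals, a transgenic strain kept for mutation assays, about 11 weeks old. BkF is a polycyclic aromatic hydrocarbon formed in incomplete combustion, and D3 mice received 100 mg/kg-bw/day of it in olive oil by oral gavage for 28 days in a row. D0 mice received olive oil alone by the same route and schedule. Both groups were killed 72 hours after the last dose, so every value describes the liver after a pause in exposure. The RNA came from random sections of a frozen liver, 1 array per mouse, and was hybridised against a reference RNA pooled from 11 mouse cell lines. The livers labelled D1 (2 arrays, 25 mg/kg-bw/day) and D2 (3 arrays, 50 mg/kg-bw/day) shared the fit, and hence its estimate of the spread, for a total of 13 liver arrays.

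BkF is a ligand of the aryl hydrocarbon receptor (AhR), a transcription factor held in the cytoplasm by a chaperone complex until a ligand binds. The receptor then enters the nucleus, pairs with ARNT and binds DNA at sites with the core GCGTG. Its target genes, the AhR battery, include the Cyp1 enzymes, which oxidise such hydrocarbons, conjugating enzymes, and the repressors Ahrr and Tiparp, which limit the response. The liver is made mostly of hepatocytes, which secrete plasma proteins, metabolise lipids and clear foreign compounds, and it also houses resident macrophages called Kupffer cells.

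A value below is a log2 ratio of liver over reference, and a difference is the D3 mean minus the D0 mean on that scale, with its standard error (SE). Values of single livers stand in the order of mouse number. Of 55681 probes, 30460 were well above background in enough livers to be tested, and 18579 of those could be named, for 14508 genes. On 12 of the 13 arrays, the 8 compared here among them, between 38.4% and 46.4% of probes were well above background, and on that of the D2 liver of mouse 13, which shares the fit, 57.6% were. A probe is called here at a limma adjusted p of at most 0.05 together with a fold change of at least 1.5. With 4 mice a group, p-values measure the spread between these mice. In bulk tissue, fewer cells of a type and less RNA per cell cannot be told apart.

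The liver label was checked against 17 measured hepatocyte genes, of 18 listed, and all 17 were well above background on all 8 arrays. Their mean log2 ratio lay between 7.58 and 7.76 in D0 livers and between 7.11 and 7.48 in D3 livers. A pair of D3 livers stood apart in marker genes of other tissues. Mouse 17 had a mean of 2.89 over 13 skeletal muscle genes, against -1.22 to -1.04 in the other 3 D3 livers and -1.12 to -1.01 in D0. Over 8 fat genes, mouse 17 had 3.90 and mouse 20 had 3.06, against 1.69 and 1.85 in mice 16 and 19 and 1.57 to 1.94 in D0. All 13 muscle genes had a higher mean in D3, 0 of them at an unadjusted p under 0.05, and 3 of 13 did without mouse 17. The counts of gene groups below are also given without mouse 17, and with mice 17 and 20 both left out. The 8 arrays lay on 2 slides with 2 arrays of each group, but the vehicle arrays all lay in the first array column, and 3 of the D3 arrays in the fourth and 1 in the third. The 10 spike-in RNAs, added to each labelling, differed between D3 and D0 by -0.729 to -0.527 on the log2 scale.

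**Figure D1:**
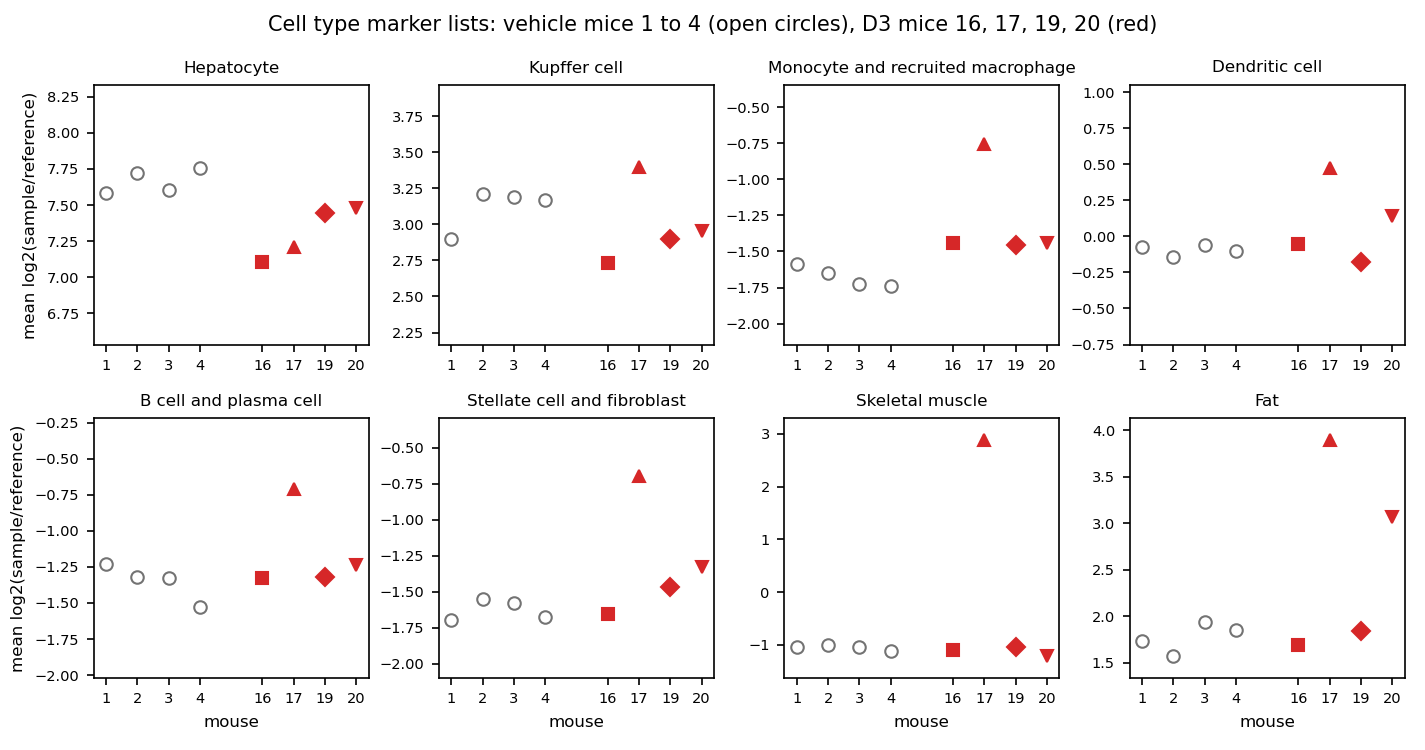
Mean log2 ratio of liver over reference of marker lists, by mouse number. Each point is 1 liver, D0 as open circles and D3 in red, with a panel and a y axis of its own for each list. The D3 liver of mouse 17 stands at 2.89 for skeletal muscle while the other 7 livers lie below -1.0, and mice 17 and 20 stand above the other livers for fat.

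Which single genes differed was asked first. limma called 16 of the 30460 probes, or 0.0525%, and 2376 probes had an unadjusted p under 0.05. The 16 probes belong to 14 genes, of which 10 rose and 4 fell. Several of the genes that rose are known from macrophages and dendritic cells, and 2 of the 4 that fell, Retsat and Pglyrp2, are highly expressed in liver.

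Adamdec1, a secreted metalloprotease made by macrophages and dendritic cells, had the smallest p. It read 1.66, 1.58, 1.53 and 1.66 in the D0 livers and 3.73, 4.25, 3.41 and 4.20 in the D3 livers. Every D3 liver stood above every D0 liver, by more than the whole spread of either group. The mean rose by 2.29 (SE 0.22, limma adjusted p 0.00435), a 4.88-fold rise on this probe, and the difference was 2.37 within the first slide and 2.21 within the second. A dimmer probe of the gene differed by 0.67 (limma adjusted p 0.15) with no overlap of the groups either.

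The transcripts of 3 receptors of innate immunity rose. Tlr12, a mouse Toll-like receptor for a parasite protein, read 0.72, 0.36, 0.58 and 0.58 in D0 and 2.61, 2.11, 1.85 and 1.91 in D3. Its difference was 1.56 (SE 0.16, limma adjusted p 0.0049), and mouse 16 was the highest. Clec4n, which encodes dectin-2, a lectin that binds fungal mannans, read 1.29, 1.85, 1.74 and 1.96 in D0 and 2.83, 3.35, 2.68 and 3.33 in D3. The difference of 1.33 (SE 0.20, limma adjusted p 0.0359) again left a gap between the groups. Cx3cr1, the receptor of the chemokine fractalkine on monocytes and tissue macrophages, read 0.50, 0.51, 0.07 and 0.96 in D0 and 2.62, 2.22, 1.87 and 2.31 in D3. It rose by 1.74 (SE 0.26, limma adjusted p 0.036), with the mean of a second, dimmer probe higher by 0.41 (limma adjusted p 0.464).

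Mefv, which encodes the inflammasome protein pyrin, read 0.11, 0.12, 0.06 and 0.57 in D0 and 1.88, 1.57, 0.93 and 1.56 in D3. It rose by 1.27 (SE 0.20, limma adjusted p 0.043), but it was above background in 1 of 4 D0 livers, and a second probe gave 0.20 (limma adjusted p 0.715). Cd74, the invariant chain that guides class II molecules of the major histocompatibility complex (MHC) to the compartment where they are loaded, read -0.58, -0.67, -0.94 and -0.94 in D0 and 0.78, 1.42, 0.90 and 1.53 in D3. The rise of 1.94 (SE 0.30, limma adjusted p 0.043) was the second largest among the called genes that rose. All 4 D3 livers stood above the highest D0 liver, with mice 17 and 20 on top.

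The 4 other genes that rose have roles outside innate immunity or roles that are less well known. Tcf4, an E protein transcription factor needed for plasmacytoid dendritic cells, read -1.68, -2.06, -2.16 and -1.72 in D0 and -0.98, -0.61, -1.01 and -0.73 in D3. Its rise was 1.07 (SE 0.13, limma adjusted p 0.0154), and a dimmer probe gave 0.51 (limma adjusted p 0.122). Osbpl3, an oxysterol-binding lipid transfer protein, read -2.08, -2.84, -3.00 and -3.11 in D0 and -1.38, -1.14, -1.41 and -0.80 in D3. Both of its probes were called, with rises of 1.58 (limma adjusted p 0.0202) and 1.47 (0.0179). Amz1, a metallopeptidase, rose by 0.99 (SE 0.14, limma adjusted p 0.0234). Ttc39a, a tetratricopeptide repeat protein, rose by 1.23 (SE 0.18, limma adjusted p 0.0309), while its other probes gave 0.88 and 0.31.

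Among the genes that fell, Mmd2, a membrane protein of the progestin and adipoQ receptor family, moved furthest. It read 3.08, 3.17, 3.73 and 2.42 in D0 and 0.58, 0.33, 1.00 and 0.66 in D3, and fell by 2.46 (SE 0.32, limma adjusted p 0.0179). The highest D3 liver stayed well under the lowest D0 liver, and 3 of 4 D3 livers were above background. Retsat, retinol saturase, which makes dihydroretinol from vitamin A, read 3.59, 3.59, 3.26 and 3.25 in D0 and 2.33, 2.54, 2.62 and 2.49 in D3. It fell by 0.92 (SE 0.11, limma adjusted p 0.0154). Pglyrp2, an amidase that the liver secretes into blood and that cuts bacterial peptidoglycan, read 4.91, 4.79, 4.90 and 4.68 in D0 and 3.90, 3.98, 3.79 and 4.18 in D3. Its probes fell by 0.86 (limma adjusted p 0.0234) and 1.01 (0.036), with no overlap of the groups on either. Srgap3, a GTPase-activating protein of the Slit and Robo pathway, fell by 0.70 (SE 0.11, limma adjusted p 0.0458), while its other probes gave -0.35 and -0.11.

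**Figure D2:**
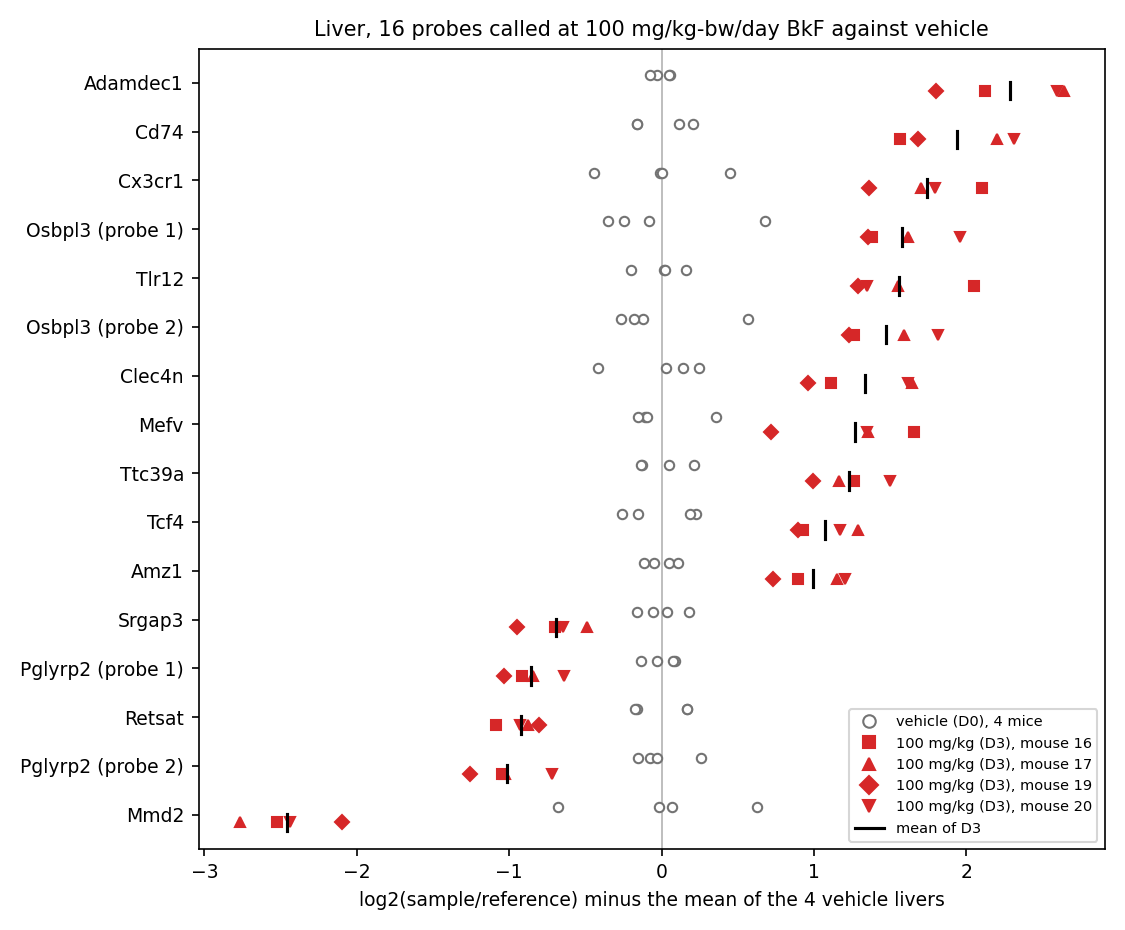
The 16 called probes (y axis) with the log2 ratio of each liver minus the mean of the 4 D0 livers (x axis). Open circles are D0 livers, red symbols the 4 D3 livers and short lines the D3 means. On every probe the 4 D3 livers lie all above or all below the 4 D0 livers, from 2.29 for Adamdec1 to -2.46 for Mmd2. The probes were called on these same livers.

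The lower doses were set beside these genes as values only, since all contrasts use the same 4 D0 livers. Adamdec1 differed from D0 by 1.46 at D1, 1.89 at D2 and 2.29 at D3. Tlr12 gave 0.71, 1.62 and 1.56, and Cd74 gave 1.16, 2.00 and 1.94. Retsat gave -0.49, -0.81 and -0.92, and Mmd2 gave -1.32, -2.03 and -2.46. These values rest on 2 livers at D1, 3 at D2 and 4 at D3. At D2, 13 probes were called.

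With the slide as a block, 10 of the 16 probes stayed called. The calls of Cd74, Cx3cr1 and Srgap3 were lost (limma adjusted p 0.077 each), as were those of Mefv and Ttc39a (0.0548 each) and of 1 of the Pglyrp2 probes (0.0651). In the fit on the 8 arrays alone Srgap3 also lost its call (0.0762).

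Other settings also ended calls. With median centring in place of loess the 4 calls lost were all of probes that fell, Retsat at -0.66 (limma adjusted p 0.0531), Pglyrp2 at -0.58 (0.147) and -0.69 (0.0936) and Srgap3 at -0.43 (0.146). With the scanner software's ratio 12 calls were lost, Adamdec1 included (0.0821). The differences of Mefv at 3.44 (0.0862), Cx3cr1 at 2.68 (0.334), an Osbpl3 probe at 2.50 (0.071) and Srgap3 at -1.22 (0.333) were then over 1.5 times as large. So was that of Amz1, which kept its call, at 1.845 (0.0167). With the skeletal muscle score as a covariate Adamdec1 and Tlr12 alone stayed called. The count of 16 depended on single arrays. It was 22 without mouse 19, and between 2 and 5 without any 1 of the other 7 livers, the 4 D0 livers included. Adamdec1 and Tlr12 were called in all 8 of these fits, and both are the 2 probes called without mouse 17. With mice 17 and 20 both left out, limma called 0 probes, with 1685 at an unadjusted p under 0.05; Adamdec1 then differed by 1.96 and Tlr12 by 1.67.

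The 16 genes or probes that followed by p were not called. Adgrg3, an adhesion receptor, came first at 0.92 (limma adjusted p 0.060). Tuba8, an alpha tubulin, differed by 2.87 (limma adjusted p 0.0723). Slc13a2, a transporter of citrate and succinate, had the largest negative difference among them at -2.11 (limma adjusted p 0.0825), and it was -3.12 at D2. Cells of the blood and immune lineages are known to use several of the others, including Csf2rb2, a cytokine receptor subunit, at 1.11 (limma adjusted p 0.0805), P2ry6, a receptor for UDP, at 0.93 (limma adjusted p 0.0821), and Ly6c1, a surface antigen of monocytes and endothelium, at 1.02 (limma adjusted p 0.0972). H2-Ab1, the beta chain of a class II molecule, differed by 1.10 (limma adjusted p 0.113). Kcnk1, a potassium channel, had 1.43 (limma adjusted p 0.122) and Slc46a3, a lysosomal transporter, 0.78 (limma adjusted p 0.128). The others were Pmm1 (0.82), Endou (0.69), Zfp941 (0.65), Hic1 (0.62), Echdc3 (0.49) and an unnamed probe (-0.72). Mmp13, a collagenase, was not well above background in any D0 liver and was at least 1.38-fold higher in D3 (limma adjusted p 0.106). In all 16, the D3 and D0 livers did not overlap, but they were picked by p in this same contrast, so this describes the choice. Over all genes, all D3 livers stood above all D0 livers in 4.69% and below them in 3.14%. Calls were gained by 14 of them with array weights, 13 with median centring and 7 in the fit on the 8 arrays alone.

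How far the AhR battery still differed at 72 hours was asked next. Of 14 listed genes, 12 were measured, and 7 had an unadjusted p under 0.05 with higher values in D3 and 1 with lower values. The same share over all 14508 genes was 5.98% for higher and 3.81% for lower. In 8 of the 12 all D3 livers stood above all D0 livers, which held for 4.69% of all genes. Cyp1a1, Cyp1b1 and Ahrr passed the filter only through livers given BkF, so these counts describe the list and support nothing. The list's median difference was 0.547, against 0.016 over all genes, and none of the 12 was called. In the fit on the 8 arrays alone Cyp1b1 (limma adjusted p 0.0286) and Ahrr (0.0261) were called, and Ahrr was with the scanner software's ratio (0.0204). Without mouse 17 the counts were 5 higher and 1 lower, and without mice 17 and 20 they were 3 and 0. The shares over all genes were then 5.21% higher and 3.9% lower without mouse 17, and 3.03% and 3.11% without mice 17 and 20.

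The promoters of Cyp1a1 and Ahrr are shown because their windows hold the core of the AhR site. The sequences are the 150 bases before the start of each gene in RefSeq (build GRCm38.p6), with GCGTG on either strand in capitals. The Cyp1a1 window is chr9:57697463-57697612 on the plus strand and the Ahrr window is chr13:74292332-74292481 on the minus strand.
Cyp1a1: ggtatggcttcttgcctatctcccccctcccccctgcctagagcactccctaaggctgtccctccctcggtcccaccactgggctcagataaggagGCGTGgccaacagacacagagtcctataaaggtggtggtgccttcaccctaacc
Ahrr: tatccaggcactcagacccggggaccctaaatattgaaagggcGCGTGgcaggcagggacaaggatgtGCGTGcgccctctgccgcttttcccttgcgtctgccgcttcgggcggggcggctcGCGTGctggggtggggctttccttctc
The core stands 54 bases before the start in Cyp1a1 and at 107, 82 and 27 bases before it in Ahrr. The windows of Cyp1b1 and Ugdh also hold it, and those of Cyp1a2, Tiparp and Nqo1 do not. No match was found for Xdh, Cyp2s1, Ugt1a6a, Ugt1a6b and Aldh3a1 either, by lack of the core or of a window. GCGTG or its reverse complement CACGC is in 20.5% of 32851 windows of this length, so a match is a description and not a site.

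Cyp1a1, the enzyme whose induction is the usual sign of AhR activity, read 0.23, -0.06, -0.0014 and -0.09 in D0 and 5.90, 7.05, 2.62 and 5.55 in D3. It was not well above background in any D0 liver, and every D3 liver was. Mice 17, 16 and 20 stood far above mouse 19, which was still above all D0 livers. D3 was at least 23.7-fold higher (limma adjusted p 0.13), and the difference of the measured means was 5.26 (SE 1.03). With the scanner software's own ratio, which subtracts background, that difference was 9.08 (limma adjusted p 0.191). The gene passed the threshold without mouse 19 (0.0436), with array weights (0.0272) and in a fit on the 8 arrays alone (0.0242). At the lower doses the difference from D0 was 2.28 at D1 and 5.69 at D2. The 2 D1 livers were split, with mouse 8 at 4.61 and mouse 9 at -0.017, among the D0 values.

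The other Cyp1 genes differed less. Cyp1b1, a Cyp1 enzyme made mainly outside the hepatocyte, read -2.73, -2.78, -2.69 and -2.65 in D0, never above background, and -1.11, 0.33, -1.35 and -0.46 in D3. It was at least 3.86-fold higher in D3 (limma adjusted p 0.337), with no overlap. Cyp1a2, a main P450 enzyme of the unexposed liver, read 6.11, 6.42, 6.26 and 6.34 in D0 and 5.81, 6.35, 6.44 and 6.34 in D3. The groups overlapped, and the difference was -0.04 (SE 0.14, limma adjusted p 0.968). At D2 it was 0.15.

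Both repressors of the pathway were higher on average. Ahrr, which competes with AhR for ARNT, read -0.69, -0.41, -0.35 and -0.35 in D0, never above background, and 0.45, 0.93, 0.32 and 0.88 in D3, and was at least 1.91-fold higher (limma adjusted p 0.349). Tiparp, a mono-ADP-ribosyltransferase that acts on AhR, read -2.72, -2.46, -2.72 and -2.55 in D0 and -2.02, -1.50, -2.30 and -2.22 in D3, a difference of 0.60 (limma adjusted p 0.542). Neither pair of groups overlapped. The receptor itself, Ahr, differed by 0.23 (limma adjusted p 0.791), and of the 6 measured genes of the list of AhR, ARNT and chaperone proteins none had an unadjusted p under 0.05 (median -0.0144).

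The remaining members, named after their values were seen, are oxidising and conjugating enzymes. Xdh, xanthine dehydrogenase, read 0.86, 0.31, 0.86 and 0.85 in D0 and 1.03, 1.72, 1.35 and 1.66 in D3, a difference of 0.72 (limma adjusted p 0.375). Ugdh, which makes the sugar donor for glucuronidation, differed by 0.45 (limma adjusted p 0.525). Nqo1, a quinone reductase, had 0.49 (limma adjusted p 0.732) and Ugt1a6b, a glucuronosyltransferase, 0.36 (limma adjusted p 0.658). In these 4 genes the groups did not overlap. They did for Cyp2s1, a P450 of epithelia, at 0.92 (limma adjusted p 0.603) and for Ugt1a6a at 0.22 (limma adjusted p 0.811). They also did for the aldehyde dehydrogenase Aldh3a1 at -0.28 (limma adjusted p 0.636), the member that was lower. Apart from Cyp1a1, Cyp1b1 and Ahrr, no member differed by more than 0.92.

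**Figure D3:**
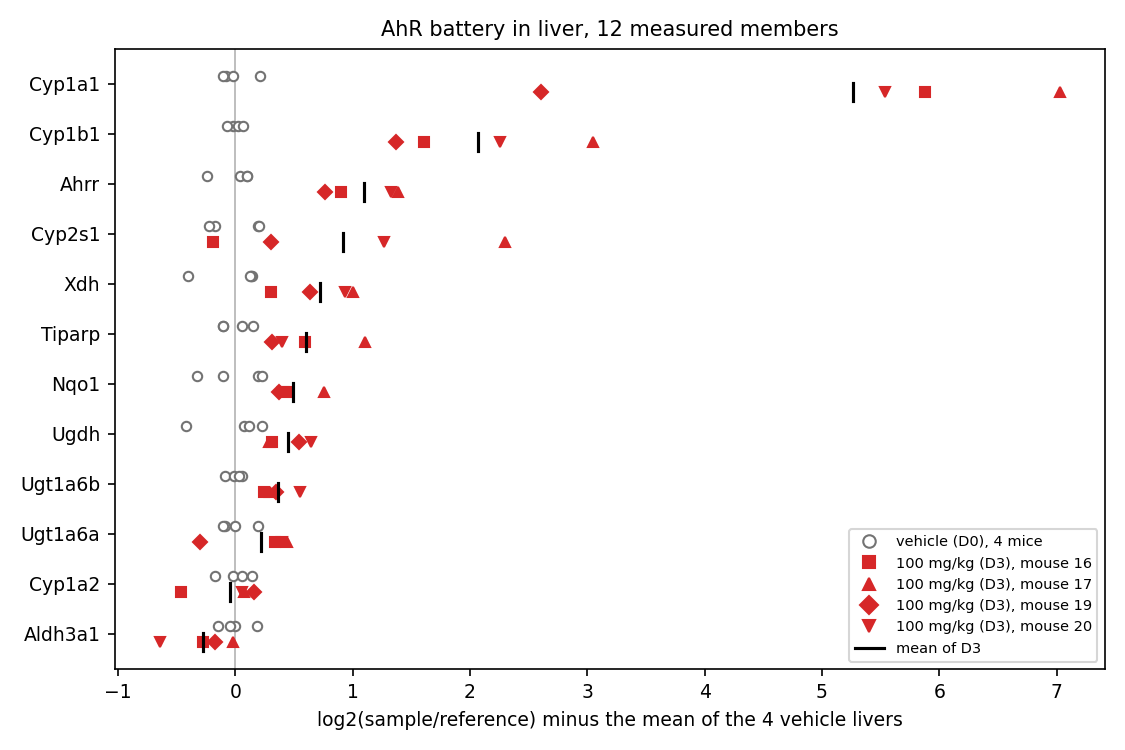
The 12 measured AhR battery genes (y axis) with the log2 ratio of each liver minus the mean of the 4 D0 livers (x axis). Open circles are D0 livers, red symbols the 4 D3 livers and short lines the D3 means. Cyp1a1, Cyp1b1 and Ahrr were not above background in any D0 liver, and Cyp1a2 overlaps between the groups.

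MHC class II molecules present peptides from engulfed proteins to helper T cells and are made by dendritic cells, macrophages and B cells. Of 14 listed class II genes, 12 were measured. In 7 of them, all D3 livers stood above all D0 livers (4.69% of all genes), and the same 7 had an unadjusted p under 0.05 (5.98% of all genes), 0 of them lower. The median difference of the list was 0.647. Only Cd74 was called, and its call was lost in each fit without 1 array, in which its limma adjusted p ran from 0.0568 to 0.241. In the fit on the 8 arrays alone H2-Aa (limma adjusted p 0.0112), H2-Ab1 (0.00839), H2-Eb1 (0.0107) and H2-DMb1 (0.0056) were called too, and so they were with array weights (0.0105, 0.0168, 0.0262 and 0.0168). With median centring H2-Ab1 (0.0144), H2-Eb1 (0.0152) and H2-DMb1 (0.0204) were. The counts were 6 higher and 0 lower without mouse 17, and 5 and 0 without mice 17 and 20, with medians of 0.541 and 0.474. The median was 0.62 within the first slide and 0.688 within the second.

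Promoters of the classical class II genes share a conserved box with CTGATTGG, of which ATTGG is the CCAAT core read on the other strand. The 150 bases before the start of 3 members are shown to place it (RefSeq, GRCm38.p6), with that run, or ATTGG where the longer run is absent, in capitals. The windows are chr17:34287824-34287973 on the minus strand for H2-Aa, chr17:34305717-34305866 on the plus strand for H2-Eb1 and chr17:34153041-34153190 on the plus strand for H2-DMb1.
H2-Aa: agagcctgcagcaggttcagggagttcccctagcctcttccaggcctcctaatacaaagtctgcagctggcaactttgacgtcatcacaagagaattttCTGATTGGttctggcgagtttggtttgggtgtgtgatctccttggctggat
H2-Eb1: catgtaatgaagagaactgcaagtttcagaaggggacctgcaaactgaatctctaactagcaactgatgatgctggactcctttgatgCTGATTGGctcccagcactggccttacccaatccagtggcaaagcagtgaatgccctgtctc
H2-DMb1: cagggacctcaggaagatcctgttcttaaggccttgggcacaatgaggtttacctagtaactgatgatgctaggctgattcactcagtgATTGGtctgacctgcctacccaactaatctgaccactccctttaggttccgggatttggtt
The run starts 51 bases before the start in H2-Aa, 62 in H2-Eb1 and, as ATTGG alone, 61 in H2-DMb1. H2-Oa also holds CTGATTGG, 46 bases before its start, and H2-Ob and Lgmn hold ATTGG, 57 and 88 bases before theirs. For H2-Oa, H2-Ob and Lgmn the D3 and D0 livers overlapped. On either strand, CTGATTGG is in 3.16% of windows of this length and ATTGG in 24.5%. No window was at hand for H2-Ab1, and Cd74 was not searched. No match was found for H2-DMa, Ctss, Ciita and Ifi30, by lack of the run or of a window.

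The presenting molecules are pairs of an alpha and a beta chain. H2-Aa, the alpha chain of the I-A molecule, read 2.17, 2.39, 2.05 and 1.89 in D0 and 3.83, 4.49, 3.40 and 4.44 in D3, a difference of 1.91 (limma adjusted p 0.131). H2-Ab1, its beta chain, read 3.59, 3.40, 3.25 and 3.25 in D0 and 4.19, 4.62, 4.52 and 4.56 in D3, and a second probe gave 1.33 (limma adjusted p 0.13). H2-Eb1, the beta chain of I-E, read 2.53, 2.47, 2.38 and 2.23 in D0 and 3.13, 3.63, 3.56 and 3.62 in D3, a difference of 1.08 (limma adjusted p 0.179). For each chain the lowest D3 liver stood above the highest D0 liver, and for H2-Aa mice 17 and 20 were the highest.

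H2-DM loads the peptides. Its chain H2-DMb1 read 0.20, -0.21, -0.04 and 0.07 in D0 and 1.03, 1.61, 1.36 and 1.49 in D3, a difference of 1.37 (limma adjusted p 0.131), and H2-DMa differed by 0.72 (limma adjusted p 0.522). Ctss, the protease that trims the invariant chain, differed by 0.58 (limma adjusted p 0.622), and neither overlapped. The other measured members, named after their values were seen, overlapped between the groups. H2-Oa, a chain of the modulator of loading, had 0.32 (limma adjusted p 0.699), and its partner H2-Ob, not above background in D0, was at least 1.08-fold higher (limma adjusted p 0.665). Lgmn and Ifi30, which process antigens, had 0.08 and -0.03, and Ciita, the transactivator of the class II genes, had -0.10 (limma adjusted p 0.885) but was above background in 2 D0 livers and 1 D3 liver.

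**Figure D4:**
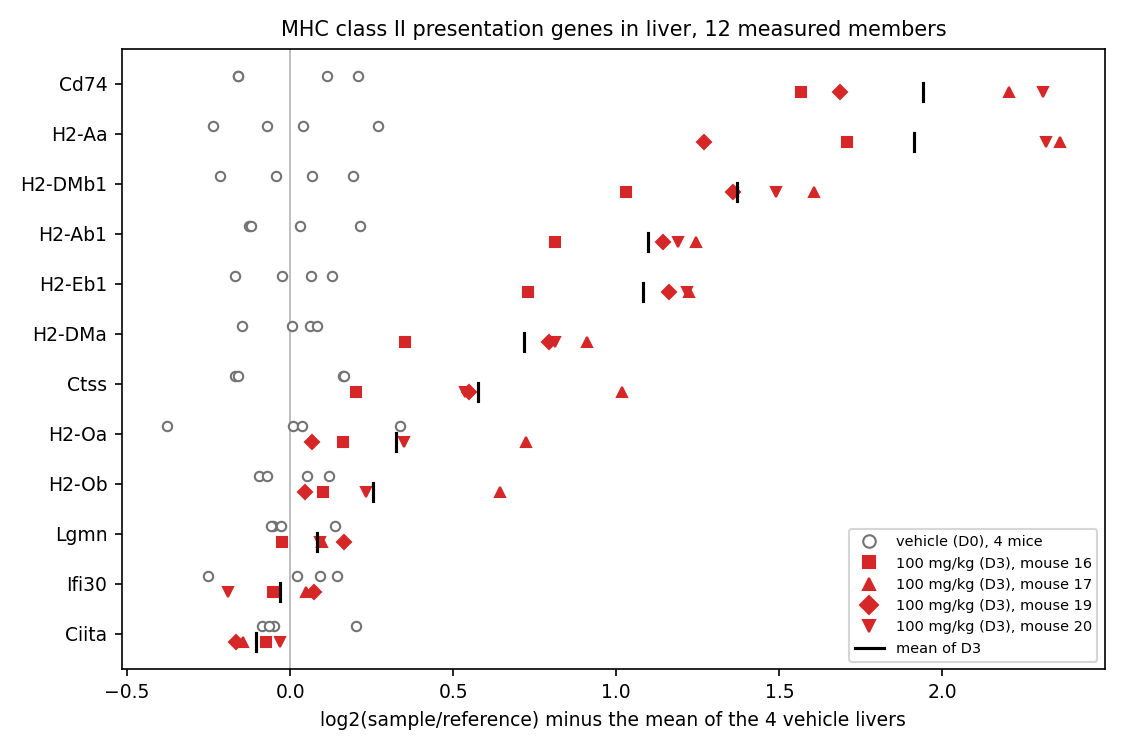
The 12 measured class II genes (y axis) with the log2 ratio of each liver minus the mean of the 4 D0 livers (x axis). Open circles are D0 livers, red symbols the 4 D3 livers and short lines the D3 means. Cd74, H2-Aa, H2-Ab1, H2-Eb1, H2-DMb1, H2-DMa and Ctss do not overlap between the groups, while H2-Oa, H2-Ob, Lgmn, Ifi30 and Ciita do.

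Class I genes, which nearly all cells use, were set beside them. Of 19 measured, 1 was higher and 1 lower at an unadjusted p under 0.05, or 5.26% each against 5.98% and 3.81% of all genes, with a median of -0.0141. Nlrc5, the class I transactivator, differed by 0.48 (limma adjusted p 0.565) and H2-Q10, a secreted class I molecule of the liver, by -0.36 (limma adjusted p 0.407). Interferon-stimulated genes had 0 of 32 at that threshold and 0 called, with a median of -0.0191. In the fits without mouse 17 and without mice 17 and 20, the class I counts were 1 and 1, then 0 and 1, and the interferon counts stayed at 0. With median centring the medians were 0.258 and 0.224, where that of all probes was 0.14.

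Markers of the cells that could carry class II transcripts were then counted. Of 15 genes of monocytes and recruited macrophages, 5 were higher and 0 lower at an unadjusted p under 0.05, with a median of 0.307. Over all genes, here and for the cell types that follow, 5.98% were higher and 3.81% lower, so that 1 gene of a list of 10 or 14 lies near the share of all genes. Adamdec1 and Cx3cr1 are 2 of the 5, and Itgax, which encodes CD11c, not above background in D0, was at least 1.35-fold higher (limma adjusted p 0.397). Itgax and Ccr2, another of the 5, passed the filter only through livers given BkF, so the count describes the list and supports nothing. The mean over the 15 genes was -1.74 to -1.59 in D0, -0.76 in mouse 17 and -1.45 to -1.44 in the other 3 D3 livers. Without mouse 17 the count was 3 and the median 0.0125, and without mice 17 and 20 the count was 2 and the median 0.00758. Of 14 Kupffer cell genes, 1 was higher and 3 lower, with a median of -0.172, or 0.0774 with median centring in place of loess. In both fits without the livers named above, 0 were higher and 3 lower. Folr2, a folate receptor of resident macrophages, had -1.33 (limma adjusted p 0.613), with mouse 17 at 2.89 and the other 3 D3 livers at 0.22 to 0.62. The D0 livers read 2.50, 3.07, 3.06 and 0.94, so that the groups overlapped.

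Of 10 dendritic cell genes, 2 were higher, Clec9a, a receptor for dead cells, at 0.56 (limma adjusted p 0.397) and Ccr7, the receptor that guides cells to lymph nodes, at 0.43 (limma adjusted p 0.633). The counts were 1 higher and 1 lower without mouse 17 and 0 and 1 without mice 17 and 20. Of 9 B and plasma cell genes, 2 were higher, led by Fcmr, the receptor for IgM, at 0.95 (limma adjusted p 0.49), and their mean was highest in mouse 17, without which 1 was higher and 1 lower. Without mice 17 and 20 the counts were 0 and 1. Of 14 T and NK cell genes 1 was lower, Gzma at -0.50 (limma adjusted p 0.566), with 2 lower without mouse 17 and 1 without mice 17 and 20. Of 10 neutrophil genes 1 was higher, S100a9, a calcium-binding protein of granulocytes, at 1.77 (limma adjusted p 0.58), and 0 were in both fits without these livers. The part of the muscle and fat RNA in these differences was not tested.

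Pattern recognition genes, which sense microbial products, went both ways. Of 18 measured, 6 were higher and 1 lower at an unadjusted p under 0.05, against 5.98% and 3.81% of all genes, and Clec4n and Pglyrp2 are the called members. Among the 6, Tlr1 and Pglyrp1 passed the filter only through livers given BkF, as did Ccr2 and Cxcr5 among the chemokine receptors that follow, and these counts too support nothing. Tlr12 was not on the list. Without mouse 17 the counts were 3 and 2, and without mice 17 and 20 they were 2 and 2. Of 33 chemokines and chemokine receptors, 9 were higher and 2 lower, which became 4 and 1 without mouse 17 and 2 and 1, or 6.06% and 3.03%, without mice 17 and 20, where the shares of all genes were 3.03% and 3.11%. Cxcl14, a chemokine of epithelium, read 0.04, 1.16, 0.98 and 1.12 in D0 and 3.05, 2.34, 2.47 and 2.40 in D3, a difference of 1.74 (limma adjusted p 0.204). The D0 livers were split, with mouse 1 far below the others, but none reached the D3 livers.

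Of 24 acute phase proteins, which the liver secretes in inflammation, 3 were higher and 3 lower, or 12.5% each, against 5.98% and 3.81% of all genes. Saa3, a serum amyloid made in inflamed tissue, read -2.57, -2.31, -2.01 and -2.23 in D0 and -0.58, 1.47, -1.55 and -1.07 in D3, a difference of 1.85 (limma adjusted p 0.407). Hamp2, a hepcidin gene, had 0.94 (limma adjusted p 0.337), a sign that turned with the scanner software's ratio (-0.57). Fgg, a fibrinogen chain, had -0.30 (limma adjusted p 0.522), or 0.0059 with median centring. The median of the list was -0.0447, or 0.237 with median centring, and the counts were 3 and 2 without mouse 17 and 2 and 2 without mice 17 and 20.

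After loess, all 17 measured hepatocyte genes had a lower mean in D3, and 11 of the 17 did with median centring in its place. Of the 17, 10 were lower at an unadjusted p under 0.05 (3.81% of all genes), and in 6 all D3 livers stood below all D0 livers (3.14% of all genes). None was called. The median difference was -0.369, and the range -0.674 to -0.164. The 10 became 8 without mouse 17 and 6 without mice 17 and 20, and all 17 had a lower mean in D3 in both fits. The median was -0.542 within the first slide and -0.195 within the second. With median centring the median was -0.0557, where the median of all probes was 0.14. The spike-in RNAs were also lower in D3 (-0.729 to -0.527), and their part in this result was not tested.

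Apob, the structural protein of very low density lipoprotein, read 10.46, 10.52, 10.44 and 10.33 in D0 and 9.69, 9.68, 10.20 and 9.54 in D3. The difference was -0.66 (limma adjusted p 0.156) without overlap, while a second probe gave -0.17 (limma adjusted p 0.867). Apoa1, the main protein of high density lipoprotein, had -0.39 (limma adjusted p 0.378), and Serpina1a, an alpha-1-antitrypsin gene, had -0.41 (limma adjusted p 0.471). Neither overlapped.

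Other gene groups of the hepatocyte were counted against the 3.81% of all genes that were lower and the 5.98% that were higher. In the P450 families 2, 3 and 4, which metabolise drugs, steroids and fatty acids, 7 of 29 were lower and 0 higher at an unadjusted p under 0.05, with a median of -0.289, or 0.021 with median centring. Cyp2f2, which oxidises naphthalene and like compounds, read 7.12, 7.38, 7.13 and 7.23 in D0 and 6.66, 6.71, 6.93 and 6.93 in D3, a difference of -0.41 (limma adjusted p 0.223). Of 38 complement and coagulation genes, 11 were lower and 1 higher, with a median of -0.201, or 0.0621 with median centring. Plg, plasminogen, had -0.40 (limma adjusted p 0.304), Mbl2, a mannose-binding lectin, -0.38 (limma adjusted p 0.398) and F12, a factor of contact activation, -0.38 (limma adjusted p 0.413). Without mouse 17, 5 of the P450 genes and 9 of the complement and coagulation genes were lower, and without mice 17 and 20 they were 5 and 13. The member that was higher was Cfd, also known as adipsin, a product of fat, at 4.57 and 6.46 in mice 20 and 17 and 0.15 and 0.21 in the other D3 livers.

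Targets of PPAR alpha, the fatty acid receptor that drives fat oxidation, numbered 28. Of these, 10 were lower (3.81% of all genes) and 1 higher (5.98% of all genes), with a median of -0.224, or 0.0399 with median centring. Creb3l3, a transcription factor of the fasting liver, read 5.01, 5.19, 4.98 and 5.03 in D0 and 4.53, 4.70, 4.79 and 4.57 in D3, a difference of -0.40 (limma adjusted p 0.21). Acot1, an acyl-CoA thioesterase, had -1.01 (limma adjusted p 0.277), without overlap. Without mouse 17, and without mice 17 and 20, 8 were lower and 1 higher.

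Around Retsat, 9 of 35 measured retinoid genes were lower at an unadjusted p under 0.05 (3.81% of all genes) and 0 higher (5.98% of all genes), with a median of -0.0985, or 0.124 with median centring. Dhrs4, a retinal reductase, had -0.32 (limma adjusted p 0.375) without overlap. In both fits without these livers 7 of the 35 were lower, with 2 higher without mouse 17 and 0 higher without mice 17 and 20. Of 23 genes of fatty acid uptake and storage, 4 were higher and 4 lower, against 3 and 3 without mouse 17 and 2 and 3 without mice 17 and 20. Cd36, a fatty acid translocase, read -0.57, -0.53, -0.17 and -0.76 in D0 and 0.25, 1.45, 1.29 and 1.39 in D3, a difference of 1.60 (limma adjusted p 0.13) without overlap, with mouse 16 the lowest of D3. Fabp5, a fatty acid-binding protein of skin and macrophages, had 1.32 (limma adjusted p 0.128), and Fabp1, that of the hepatocyte, -0.44 (limma adjusted p 0.329).

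**Figure D5:**
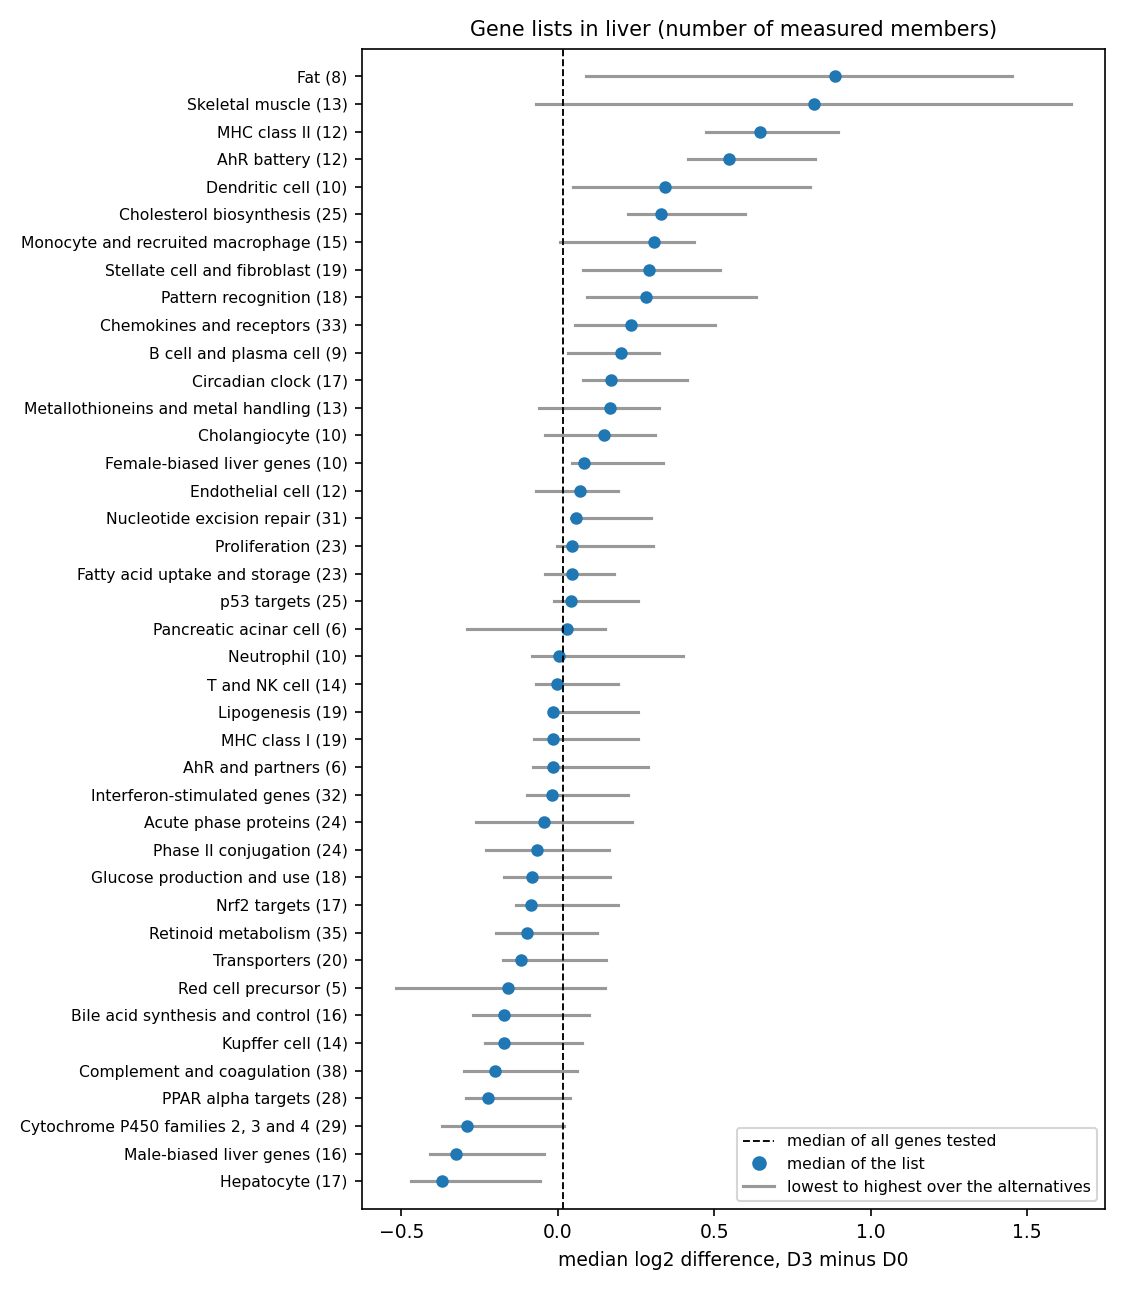
Median difference D3 minus D0 (log2) over the measured genes of each list. Points are the medians, lines their lowest to highest value over the alternative settings, left-out livers included, and the dashed line the median of all genes (0.016). The lines of MHC class II (0.647) and the AhR battery (0.547) stay above 0 and that of the hepatocyte list (-0.369) below it, while that of skeletal muscle (0.818) reaches -0.0704.

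Metabolites of BkF can bind DNA, so genes of the response to DNA damage were counted. Of 25 measured p53 targets, 2 were higher and 0 lower at an unadjusted p under 0.05, led by Sesn1 at 0.32 (limma adjusted p 0.584), and the median was 0.043. Cdkn1a, which encodes the cell cycle inhibitor p21, read -3.15, -2.33, -3.07 and -3.58 in D0 and -3.10, -3.16, -2.74 and -3.57 in D3, a difference of -0.11 (limma adjusted p 0.966) with overlap. Mdm2, which degrades p53, had 0.02 (limma adjusted p 0.978) and Ccng1, a cyclin induced by p53, 0.18 (limma adjusted p 0.69). Of 31 repair genes of the nucleotide excision and bypass pathways, 2 were higher and 0 lower, with a median of 0.0594. These shares, 8% of the p53 targets and 6.45% of the repair genes, were near the 5.98% of all genes that were higher. Without mouse 17 the p53 counts were 0 and 1 and the repair counts 1 and 0, and without mice 17 and 20 they were 0 and 0, and 2 and 0. Among 23 proliferation genes 1 was higher and 1 lower, against 1 and 0 without mouse 17 and 0 and 1 without mice 17 and 20.

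Of 17 measured Nrf2 targets, 2 were higher and 1 lower, with G6pdx, which supplies NADPH, at 0.54 (limma adjusted p 0.447) and Nfe2l2, which encodes Nrf2, at 0.53 (limma adjusted p 0.483). Of 24 phase II enzymes, 2 were higher and 5 lower, among them the glutathione transferase Gstm6 at -0.52 (limma adjusted p 0.419) and the sulfotransferase Sult1a1 at -0.34 (limma adjusted p 0.46). Of 20 transporters, 1 was higher, the efflux pump Abcc3 at 0.66 (limma adjusted p 0.452), and 4 were lower, led by the organic anion transporter Slc22a7 at -0.44 (limma adjusted p 0.255). Over all genes 5.98% were higher and 3.81% lower, and the 5% of transporters that were higher and the 5.88% of Nrf2 targets that were lower lay near those shares. Without mouse 17 the counts higher and lower were 2 and 1 for Nrf2 targets, 2 and 4 for phase II enzymes and 2 and 2 for transporters. Without mice 17 and 20 none of these 3 lists had a gene that was higher, and 2, 4 and 2 genes were lower.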

How the data were processed

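The authors hybridised liver RNA in Cy5 (red) against a reference RNA in Cy3 (green) on Agilent arrays, with no dye swap, and deposited a scanner file per array. Per the file headers it was made by Feature Extraction 11.0.1.1 and holds, for each spot, linear median intensities of both channels and the software's log10 ratio. The methods name another version and scanner model.

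Here the median intensities of both channels were taken without background subtraction, as log2 red over green, and each array was loess-normalised with limma 3.58.1 under R 4.3.3 (files read with version 1.17.8 of data.table). Control and outlier spots were left out and spots of a probe averaged. A probe was kept if it was well above background in red on at least 2 of the 13 liver arrays. Probes were named through RefSeq accessions (GRCm38.p6), and of several probes of a gene the one brightest in red was used. The study's test, MAANOVA, was replaced by limma's lmFit and eBayes on all 4 dose groups, with Benjamini-Hochberg adjustment over 30460 probes and two-sided p-values. The number of arrays limits the precision. A bound ("at least") sets the mean red signal of D3 (after loess and Aquantile) against the D0 mean, in which an array counts with the lowest signal well above background wherever the probe lay under it, and is open to dye bias. The scripts were tested on simulated data.

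The called genes, those next by p up to 30, 9 fixed AhR and p53 genes and up to 3 genes a list with the smallest p were named. The values of some single genes are not reported here. The other members of the AhR and class II lists were named after their values were seen. The comparison and the lists were chosen with earlier results of these data known. Lung and forestomach arrays and the deposited table of processed ratios were not used here.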

Additional observations from a re-analysis of the deposited data

Results flagged for a closer look

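Within a group of 4 livers, a liver was listed where its gap to the nearest of the others exceeded the share of the group's range that Dixon's test allows for 4 values. Of 399 groups examined 34 were listed, and chance lists about 1 in 20 groups. All values are log2 ratios of liver over reference, and for a list the mean over its genes. No cause was tested.

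Among the D3 livers, mouse 17 stood apart from the other 3 most often. Plg read 8.31 in mouse 17 and 8.14 to 8.16 in the other 3, and Folr2 read 2.88 in mouse 17 and 0.22 to 0.62 in the other 3. Tnni2 read 4.44 in mouse 17 and -2.12 to -1.95 in the other 3, and Myh7 read 3.19 in mouse 17 and -0.40 to -0.25 in the other 3. Atp2a1 read 2.38 in mouse 17 and -0.23 to 0.16 in the other 3, and the Retinoid metabolism list read 2.69 in mouse 17 and 2.577 to 2.585 in the other 3. The Monocyte and recruited macrophage list read -0.76 in mouse 17 and -1.45 to -1.44 in the other 3, and the B cell and plasma cell list read -0.71 in mouse 17 and -1.33 to -1.23 in the other 3. The Skeletal muscle list read 2.89 in mouse 17 and -1.22 to -1.04 in the other 3.

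The other D3 livers that stood apart were mice 16, 19 and 20. Slc46a3 read 4.51 in mouse 19 and 4.72 to 4.76 in the other 3, and Cd36 read 0.25 in mouse 16 and 1.29 to 1.45 in the other 3. H2-Eb1 read 3.13 in mouse 16 and 3.56 to 3.62 in the other 3, and Gzma read -0.60 in mouse 19 and -0.23 to -0.22 in the other 3. Cd3e read -2.04 in mouse 20 and -1.58 to -1.52 in the other 3, and Ugt1a6a read 0.023 in mouse 19 and 0.66 to 0.77 in the other 3. Ptges3 read -0.78 in mouse 20 and -0.70 to -0.68 in the other 3, and Cyp1a2 read 5.81 in mouse 16 and 6.34 to 6.44 in the other 3. The Nrf2 targets list read 1.56 in mouse 20 and 1.36 to 1.39 in the other 3, and the Transporters list read 3.87 in mouse 20 and 3.62 to 3.66 in the other 3. The MHC class I list read 1.53 in mouse 20 and 1.26 to 1.30 in the other 3, and the Acute phase proteins list read 6.61 in mouse 19 and 6.76 to 6.78 in the other 3.

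Among the D0 livers, the following genes and lists had 1 liver apart from the other 3. Osbpl3 read -1.85 in mouse 1 and -2.69 to -2.55 in the other 3, and Mefv read 0.57 in mouse 4 and 0.062 to 0.12 in the other 3. An unnamed probe read 1.98 in mouse 4 and 1.67 to 1.71 in the other 3, and Cxcl14 read 0.041 in mouse 1 and 0.98 to 1.16 in the other 3. Xdh read 0.31 in mouse 2 and 0.85 to 0.86 in the other 3, and Serpina1a read 8.67 in mouse 2 and 8.35 to 8.38 in the other 3. Sesn1 read -0.26 in mouse 4 and -0.15 to -0.14 in the other 3, and Cyp8b1 read 6.90 in mouse 3 and 6.09 to 6.17 in the other 3. Ciita read 0.28 in mouse 4 and -0.0085 to 0.028 in the other 3, and Lgmn read -0.94 in mouse 4 and -1.13 to -1.10 in the other 3. The Complement and coagulation list read 5.89 in mouse 1 and 6.10 to 6.13 in the other 3, and the Bile acid synthesis and control list read 5.17 in mouse 2 and 5.39 to 5.40 in the other 3. The Kupffer cell list read 2.90 in mouse 1 and 3.17 to 3.21 in the other 3.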

How the results depend on the processing

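The 16 calls (68.8% higher) became 46 in a fit on the 8 arrays alone, 10 with the slide as a block, 9 with the scanner software's ratio (88.9% higher), 67 with median centring in place of loess (97% higher), 58 with array weights (77.6% higher) and 2 with the skeletal muscle score as a covariate, both higher. Without 1 liver the count lay between 2 and 22, and with mice 17 and 20 both left out, a setting chosen after seeing the data, it was 0, with 1685 probes at an unadjusted p under 0.05. Normexp background correction and both other filters gave 16 to 18. Aquantile scaling after loess leaves every log ratio as it was, so it is no separate check. Of the 16 probes, 10 were shared with the calls under the slide block, 15 with those of the 8 arrays alone and 4 with those of the software's ratio (Tlr12, Tcf4, Retsat and Amz1). Median centring put the median difference of all probes at 0.14, against -0.005 after loess.

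Signs turned only in genes that were not called. With median centring these were Tat (0.0025), Fgg (0.0059), Cyp4f14 (0.0027), Fbp1 (0.037), Abcb11 (0.047), Acat2 (0.020), Abcc2 (0.019), Hamp (0.092), Oas3 (0.052), Cd3e (0.023), Csf3r (0.20), Elane (0.13), Nr1h3 (0.15), Fads1 (0.096), Hbb-bt (0.15), Ciita (0.11), Ptges3 (0.26), Cdkn1a (0.16), Cyp1a2 (0.35) and Ifi30 (0.25). With the software's ratio Hamp2 (-0.57) and Mdm2 (-0.0016) turned, and with array weights Mdm2 (-0.0013). Over the fits without 1 liver, Ifi30 ranged from -0.11 to 0.023 and turned without mouse 1, 3 or 20, Mdm2 from -0.017 to 0.049 (mouse 1 or 19), Cdkn1a from -0.29 to 0.12 (mouse 2 or 20) and Cyp1a2 from -0.11 to 0.098 (mouse 2 or 16). With mice 17 and 20 left out, Cdkn1a (0.11) and Ifi30 (0.010) turned. The causes were not tested. Of all values of single genes over these settings, Aquantile left out, 2618 kept direction and side of the threshold, 145 lost the call and 62 gained it. No paired analysis was possible because the vehicle and high-dose livers came from different mice. Signal near background limits Cyp1a1, Cyp1b1, Ahrr and Mefv in the D0 livers.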

Other observations

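Cholesterol synthesis, the clock and sex-biased genes were counted besides. Of 25 measured genes of cholesterol synthesis, 23 had a higher mean in D3, with a median of 0.329, and 3 were higher and 1 lower at an unadjusted p under 0.05, where 5.98% and 3.81% of all genes were. Without mouse 17 those counts were 0 and 0, and the median was 0.332. Without mice 17 and 20 they were 0 and 1, and the median was 0.224. It was 0.597 with median centring. Mvd, which makes isopentenyl diphosphate, had 0.88 (limma adjusted p 0.607) and overlapped between the groups. Of 17 clock genes, 3 were higher and 4 lower, against 1 and 3 without mouse 17 and 1 and 2 without mice 17 and 20. Clock itself had -0.40 (limma adjusted p 0.204), its repressor Cry2 0.54 (limma adjusted p 0.219) and the nuclear receptor Rora -0.37 (limma adjusted p 0.43), and none of these 3 overlapped. The hour at which each mouse was killed was not given in the sources used here.

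Of 16 measured male-biased liver genes, 14 had a lower mean in D3 (median -0.325), with 2 lower and 0 higher at that threshold, also in both fits without these livers, and with median centring 10 had a lower mean (median -0.0445). At D2 the median was -1.17. On each of these male-biased genes the liver of mouse 12 was the lowest of the 3 D2 livers. Susd4, for example, read 2.89 in mouse 12 and 5.69 and 5.39 in mice 11 and 13. The liver of mouse 12 shares the fit and its estimate of the spread. Of 10 female-biased genes, 1 was higher and 0 lower at that threshold, and 0 were either in both fits without these livers. Lipogenesis genes had 0 of 19 at that threshold, glucose genes 1 higher and 2 lower of 18, bile acid genes 0 and 2 of 16, and metallothionein and metal genes 0 and 2 of 13, where 5.98% of all genes were higher and 3.81% lower. Without mouse 17 the glucose counts were 2 and 2 and the bile acid counts 0 and 3, and without mice 17 and 20 they were 1 and 1, and 0 and 3. The lipogenesis and metal counts were the same in both fits. Among markers of other cells, stellate cells and fibroblasts had 2 higher of 19, led by the collagen Col3a1 at 1.17 (limma adjusted p 0.456), and endothelium 3 of 12, led by Vwf, von Willebrand factor, at 1.15 (limma adjusted p 0.395). Cholangiocytes had 1 higher of 10, pancreatic acinar cells 1 higher and 1 lower of 6, red cell precursors 1 lower of 5, skeletal muscle 0 of 13 and fat 2 higher of 8. Without mouse 17, stellate cells and fibroblasts had 1 higher and 1 lower, endothelium 2 higher, cholangiocytes 0, acinar cells 2 lower, red cell precursors 1 lower and fat 1 higher. Of the genes that were higher, both of fat, Cfd and Adipoq, and that of acinar cells, Cpa1, passed the filter only through livers given BkF. Without mice 17 and 20, where 3.03% of all genes were higher and 3.11% lower, none of these lists had a gene that was higher, endothelium had a median of -0.0417, and the genes that were lower numbered 1 for stellate cells and fibroblasts, 1 for acinar cells and 2 for red cell precursors. Skeletal muscle had 0 in both fits.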
